A study of Homo sapiens with 24 samples.

Results

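The 9 genes described here encode serine/arginine-rich (SR) splicing factors and their relatives: SRSF1, SRSF2, SRSF3, SRSF5, SRSF6, SRSF7, SRSF11, TRA2A and TRA2B. Each gene was represented by 1 window on hg19, and a peak belonged to a gene when it shared at least 1 nt with the window on the same strand. Across 7 peak lists, 703 of 269336 peaks met this rule. The rule itself uses gene positions and no measured value, although the genes were picked with earlier results of these data known. The windows together covered 136.5 kb and ranged from 3.5 kb for SRSF2 to 47.5 kb for SRSF11.

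The peaks came from eCLIP, in which RNA is crosslinked to protein by ultraviolet light, trimmed with RNase I, precipitated with an antibody and sequenced beside a size-matched input. All libraries were from 293T cells, a human embryonic kidney line that carries the SV40 large T antigen. The libraries were 2 RBFOX2 precipitations (replicates 1 and 2, 40 U of RNase I), 4 SLBP precipitations (replicates 1 and 2 at 40 U, replicates 3 and 4 at 5 U) and 1 isotype IgG precipitation (40 U), each with an input of its own at the same RNase amount. The cells carried no other stated treatment or allele. Separate cultures are not stated for the replicates, so the spread between libraries may be technical. The other 10 RBFOX2 samples, a series of RNase amounts, were not analysed here.

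SR proteins carry an RNA recognition motif and a domain rich in arginine and serine, bind enhancer sequences in exons and recruit the splicing machinery. Many of their own genes contain ultraconserved "poison" exons, whose inclusion sends the mRNA to nonsense-mediated decay and lets the proteins limit their own levels. RBFOX2, an RNA recognition motif protein that binds (U)GCAUG elements, is one of the splicing regulators that act beside them. SLBP binds the stem-loop of replication-dependent histone mRNAs and its libraries served as the comparison with another RNA-binding protein.

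Each peak has the authors' log2 fold of precipitation over paired input and their −log10 p. A peak was called enriched at a −log10 p of at least 5 and a log2 fold of at least 3, which is 8-fold over input, and was called below input when its log2 fold was negative. Folds were scaled within each library and its own input, read counts are not in the lists, and the depth behind each fold is unknown. Positions are given in nt from the 5′ end of each window. The exon and intron structure of hg19 was not used here.

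In the 9 genes RBFOX2 had a few strongly enriched stretches and a larger number of peaks below input, and its remaining peaks lay above input without passing both limits. RBFOX2 replicates 1 and 2 had 169 and 156 peaks in the windows, SLBP replicates 1 to 4 had 82, 70, 77 and 58, and IgG had 91. Enriched peaks numbered 15 and 19 in RBFOX2, 0 in each of the SLBP libraries and 1 in IgG. The RBFOX2 counts were 8.88% and 12.2% of the peaks in the genes, against 7.95% and 7.66% of all peaks in those lists. The share in the genes was thus close to that of the list in replicate 1 and higher in replicate 2. SRSF6 alone held 8 of the 15 and 10 of the 19 enriched peaks, with 10 and 14 RBFOX2 peaks in its window. These shares therefore rest largely on 1 gene and do not describe the others. For SLBP, 0 of 82, 70, 77 and 58 peaks allows shares of up to 3.66%, 4.29%, 3.90% and 5.17%. The whole SLBP lists had 1.23%, 1.27%, 1.70% and 2.33% enriched, so a share as low as that of the lists was not detectable in the genes. The 1 enriched IgG peak was 1.10% of the IgG peaks in the genes, against 0.180% in the IgG list. These limits cover counting error only. By the log2 fold limit alone, the genes had 17 and 19 RBFOX2 peaks (12.0% and 11.6% of the lists passed), 1, 2, 0 and 1 SLBP peaks (7.21%, 7.44%, 2.06% and 15.3% of the lists) and 1 IgG peak (4.12% of the list).

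Peaks below input made up about the same part of both RBFOX2 libraries. They numbered 86 and 79 in RBFOX2 (50.9% and 50.6%, against 32.6% and 31.0% of all peaks in those lists). In SLBP replicates 1 to 4 they numbered 7, 11, 21 and 12 (8.54%, 15.7%, 27.3% and 20.7%, against 7.02%, 9.45%, 23.4% and 17.0% of the lists). In IgG 21 of 91 lay below input (23.1%, against 10.7%). The share below input was higher in the genes than in the list in 7 of 7 libraries. The median log2 fold in the genes was 0.00 and −0.03 in RBFOX2, 0.74, 0.81, 0.49 and 0.81 in SLBP and 0.50 in IgG. The whole lists had medians of 0.73 and 0.86 in RBFOX2, 1.57, 1.46, 0.66 and 1.17 in SLBP and 1.31 in IgG, all above the median of the genes in the same library.

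The windows were also crossed by peaks of every antibody. RBFOX2 replicates 1 and 2 had 22.6 and 16.0 of every 10000 peaks in the 9 genes, SLBP replicates 1 to 4 had 35.6, 38.1, 45.4 and 57.3, and IgG had 32.1. Both RBFOX2 values were below those of the other 5 libraries, whose lists are shorter. Of the RBFOX2 peaks in the genes, 44.4% and 39.7% touched an IgG peak, against 15.6% and 11.2% over the whole RBFOX2 lists. Peaks covered 4.65% and 4.63% of the windows in RBFOX2, from 1.53% to 2.47% in SLBP and 2.70% in IgG.

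**Figure D1:**
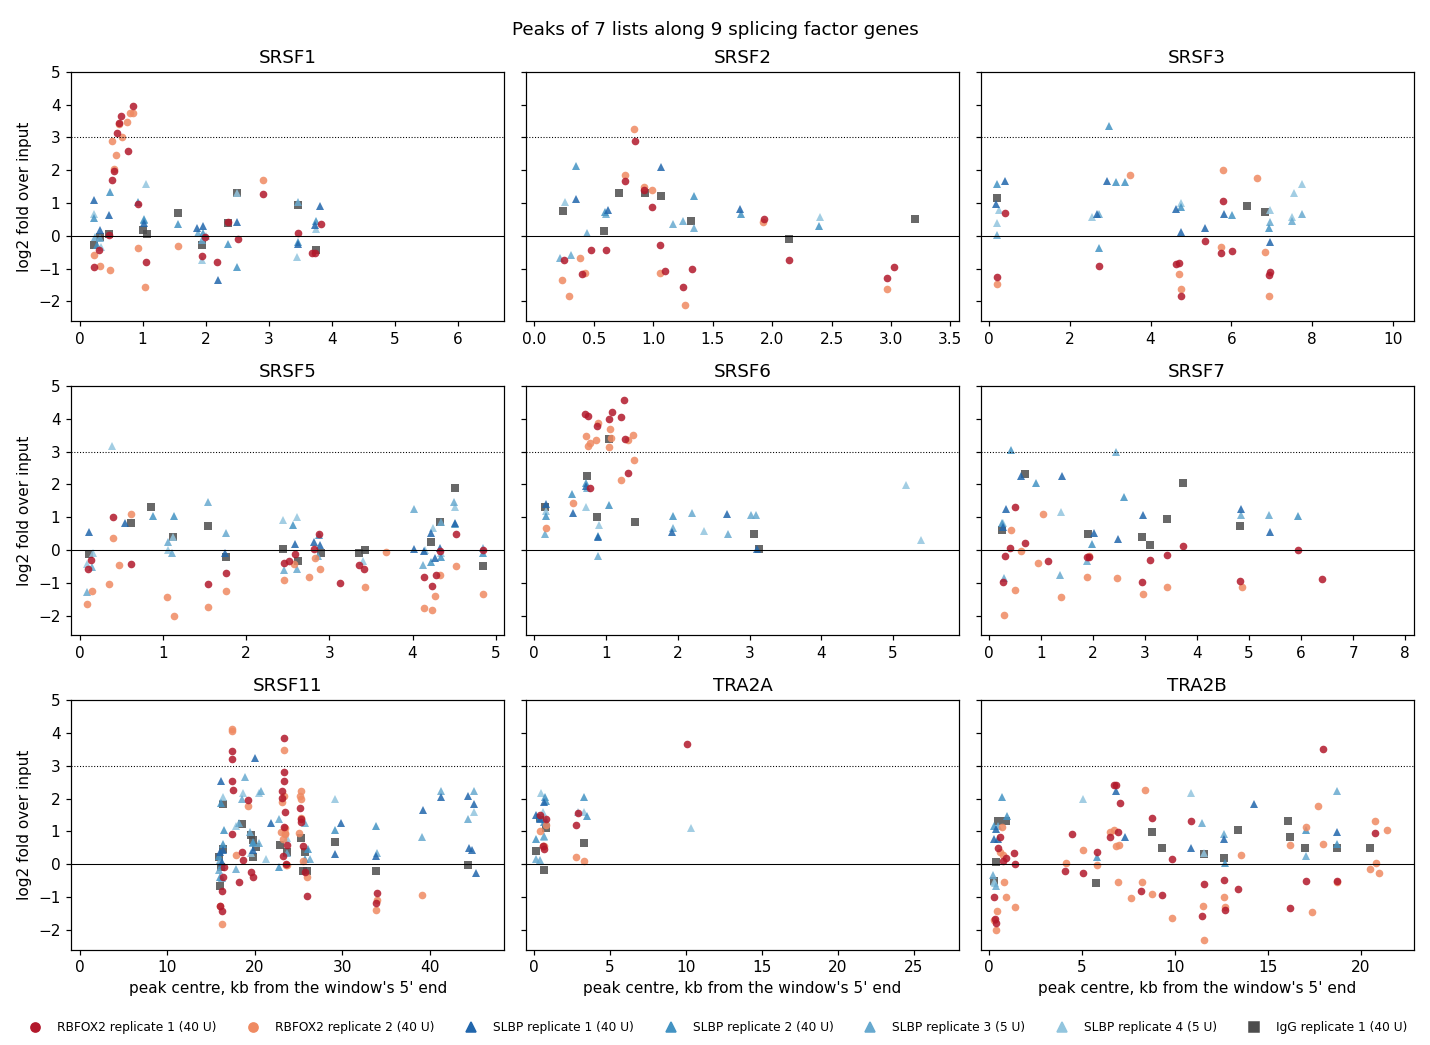
Log2 fold over input (vertical axis) of every peak in the 9 gene windows against the position of the peak's centre in kb from the window's 5′ end (horizontal axis), with circles for the 2 RBFOX2 libraries, triangles for the 4 SLBP libraries and a square for IgG. The solid line marks input level and the dotted line the log2 fold limit of 3; RBFOX2 circles pass it as groups in SRSF6, SRSF1 and SRSF11, while in SRSF3, SRSF5 and SRSF7 none do.

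SRSF6 (SRp55), an SR protein with a pair of RNA recognition motifs, was the gene with the largest part of its RBFOX2 peaks enriched. RBFOX2 replicate 1 had 10 peaks in its 5.8 kb window with 8 enriched, and replicate 2 had 14 with 10 enriched. SLBP replicates 1 to 4 had 0 enriched, and IgG had 7 peaks with 1 enriched. No RBFOX2 peak lay below input. All enriched peaks lay in 1 stretch of 704 nt on the plus strand of chromosome 20, from 42087199 to 42087902, which starts 699 nt and ends 1402 nt from the 5′ end of the window. Neither RBFOX2 library had a peak beyond that stretch in the remaining 3′ part of the window, where SLBP and IgG peaks reached.

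Within the stretch, 3 regions were covered by enriched peaks of both RBFOX2 libraries. Where several peaks of a library meet a region, the highest fold is given, here and for the regions of the other genes. At 42087353 to 42087416, the log2 folds were 3.78 and 3.86 in RBFOX2 replicates 1 and 2, against 0.41, 0.41, −0.19 and 0.77 in SLBP replicates 1 to 4 and 1.01 in IgG. The authors' −log10 p there was 400, the ceiling of the lists, in RBFOX2 replicate 1 and 71.3 in replicate 2. Both RBFOX2 folds stood above those of the other 5 libraries, none of which came near the limit of 3.

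The other regions of SRSF6 also carried signal in the IgG or SLBP libraries. At 42087201 to 42087258 the log2 folds were 4.16 and 3.49 in RBFOX2, against 1.94, 2.04, 1.88 and 1.32 in SLBP and 2.27 in IgG, where the −log10 p was 8.78. At 42087522 to 42087576 they were 4.22 and 3.69 in RBFOX2, against 1.36 in SLBP replicate 2 and 3.40 in IgG. The other SLBP libraries had no peak there. The value of 3.69 belongs to a narrow peak, and the wider RBFOX2 replicate 2 peak at 42087522 to 42087553 had 3.13. This IgG peak, at 42087525 to 42087564 with a −log10 p of 5.98, was the 1 enriched IgG peak in the 9 genes. RBFOX2 replicate 2 was thus below IgG over much of this region, whereas in the other regions of SRSF6 both RBFOX2 folds lay above the IgG fold. With 1 IgG library these differences have no replicate check.

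SRSF1 (ASF/SF2), the prototype SR protein, had 1 enriched stretch near the start of its window. Its window held 22 and 15 RBFOX2 peaks with 4 and 5 enriched. SLBP replicates 1 to 4 had between 6 and 11 peaks and IgG had 11, with 0 enriched in each. The stretch spanned 381 nt on the minus strand of chromosome 17, from 56083917 to 56084297, 503 to 883 nt from the 5′ end, and held 7 and 8 RBFOX2 peaks with median log2 folds of 3.14 and 3.21. The other 5 lists had 0 peaks in it. Inside it, the region 56083919 to 56084004 had log2 folds of 3.95 and 3.75 in RBFOX2 replicates 1 and 2, and the region 56084123 to 56084205 had 3.66 and 3.42. A list without a peak gives no fold, and the reads behind its absence are unknown.

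All RBFOX2 peaks of SRSF1 below input, 9 in replicate 1 and 6 in replicate 2, lay outside this stretch. At 56084556 to 56084593, 207 to 244 nt from the 5′ end, the log2 folds were −0.95 and −0.57 in RBFOX2, against 1.08, 0.54, −0.04 and 0.65 in SLBP and −0.27 in IgG. At 1059 nt they were −0.80 and −1.57 in RBFOX2, against 0.39, 0.48, 0.52 and 1.58 in SLBP and 0.05 in IgG. RBFOX2 was thus the lowest of the antibodies at these places, 1 on each side of the stretch. Other peaks outside it lay above input, such as 1 of replicate 1 at 905 to 936 nt with a log2 fold of 0.96, which met −0.38 in replicate 2. The SRSF1 window is shorter than the gene of that symbol in the RefSeq table for GRCh38.p14 (18209 nt), so a longer gene model would hold sequence not counted here.

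SRSF11 (SRp54), a more distant SR family member, is the longest window and held the other regions enriched in both RBFOX2 libraries. It had 34 and 26 RBFOX2 peaks with 3 enriched in each library. SLBP replicates 1 to 4 had 9 to 20 peaks and IgG had 19, with 0 enriched. At 70688678 to 70688726 on chromosome 1 (plus strand), the log2 folds were 3.45 and 4.13 in RBFOX2 replicates 1 and 2. At 70694620 to 70694650 they were 3.86 and 3.48. The stretches around these regions, of 90 nt and 144 nt, held 0 peaks of the SLBP and IgG lists. They lay 17372 to 17461 nt and 23266 to 23409 nt from the 5′ end. In SRSF6 and SRSF1 the stretches lay within the first 1.5 kb. The first SRSF11 peak of any list started 15867 nt from the 5′ end, so this contrast depends on where the window starts. The 2 RBFOX2 lists started at the same position, 15994 nt, with log2 folds of −1.27 and −1.28.

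SRSF2 (SC35), a factor of nuclear speckles, had a single site of the same kind, which passed both limits in replicate 2. The peak on the minus strand of chromosome 17, from 74732721 to 74732805, had a log2 fold of 3.25 and a −log10 p of 8.73 in RBFOX2 replicate 2. In replicate 1 the peak there had a log2 fold of 2.89, under the limit of 3, and a −log10 p of 5.22. The SLBP and IgG lists had 0 peaks in these 85 nt. Of the remaining RBFOX2 peaks of SRSF2, 11 of 15 in replicate 1 and 7 of 11 in replicate 2 lay below input, with medians of −0.72 and −1.14.

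**Figure D2:**
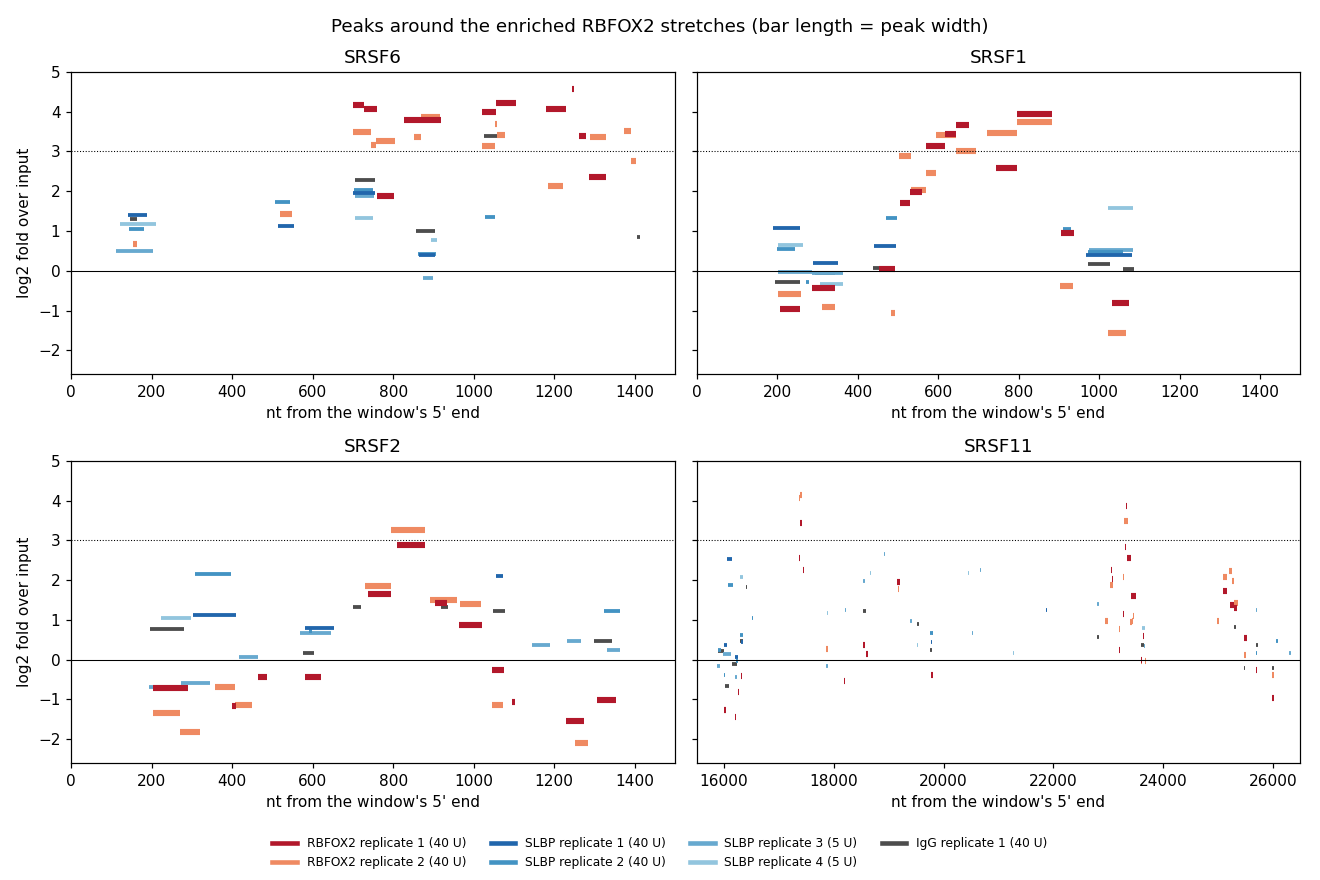
Log2 fold over input (vertical axis) against position in nt from the window's 5′ end (horizontal axis) for the first 1.5 kb of SRSF6, SRSF1 and SRSF2 and for the middle part of SRSF11, where each bar is 1 peak drawn at its true width and coloured by library. RBFOX2 bars reach above the dotted limit of 3, with others between about 2 and 3, between 699 and 1402 nt in SRSF6, 503 and 883 nt in SRSF1 and 795 and 879 nt in SRSF2, and some RBFOX2 bars on both sides of the SRSF1 stretch lie under the solid input line.

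The remaining SR genes had no enriched RBFOX2 peak and lay mostly below input. SRSF5 (SRp40) had 20 and 23 RBFOX2 peaks, of which 16 and 21 were below input, with a highest log2 fold of 1.00 and 1.11. SRSF7 (9G8), which carries a zinc knuckle and takes part in mRNA export, had 15 and 13 peaks with 11 below input in each library and a highest log2 fold of 1.32 and 1.11. The highest SRSF7 peak of replicate 1 met a replicate 2 peak with a log2 fold of −1.23, so the highest values of this gene did not recur. SRSF3 (SRp20), the smallest SR protein and a close relative of SRSF7, had 12 and 9 RBFOX2 peaks with 10 and 6 below input. Its highest peak did lie at the same place in both RBFOX2 libraries, about 5.8 kb from the 5′ end, with log2 folds of 1.06 and 2.01. At that place SLBP replicate 1 had 0.66, and the other SLBP libraries and IgG had no peak.

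The TRA2 genes encode homologs of Drosophila Transformer-2, with 1 RNA recognition motif between a pair of arginine/serine-rich domains, and neither had an enriched peak in any list. TRA2A had the fewest RBFOX2 peaks of the 9 genes, 7 and 6, and none lay below input. Its highest peak in RBFOX2 replicate 1 had a log2 fold of 3.66 with a −log10 p of 3.53, was 6 nt wide, and had no counterpart in any other list. The highest TRA2A peak of replicate 2, with 1.19, met folds of 1.38 in replicate 1, 1.24, 1.92 and 1.34 in SLBP replicates 1 to 3 and 1.10 in IgG, so at that place the antibodies lay together.

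TRA2B had 33 and 38 RBFOX2 peaks, of which 16 and 20 were below input. It had the most of the 9 genes in replicate 2, while SRSF11, with 34, had the most in replicate 1. Its highest peak in replicate 1, at 17971 to 18019 nt from the 5′ end, had a log2 fold of 3.50 and a −log10 p of 2.91, and the replicate 2 peak there had 0.62. Replicate 2 had its highest fold, 2.26, at another place. Over 22 matched TRA2B peaks, 14 had the same sign in both RBFOX2 libraries, the smallest share among the 9 genes.

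**Figure D3:**
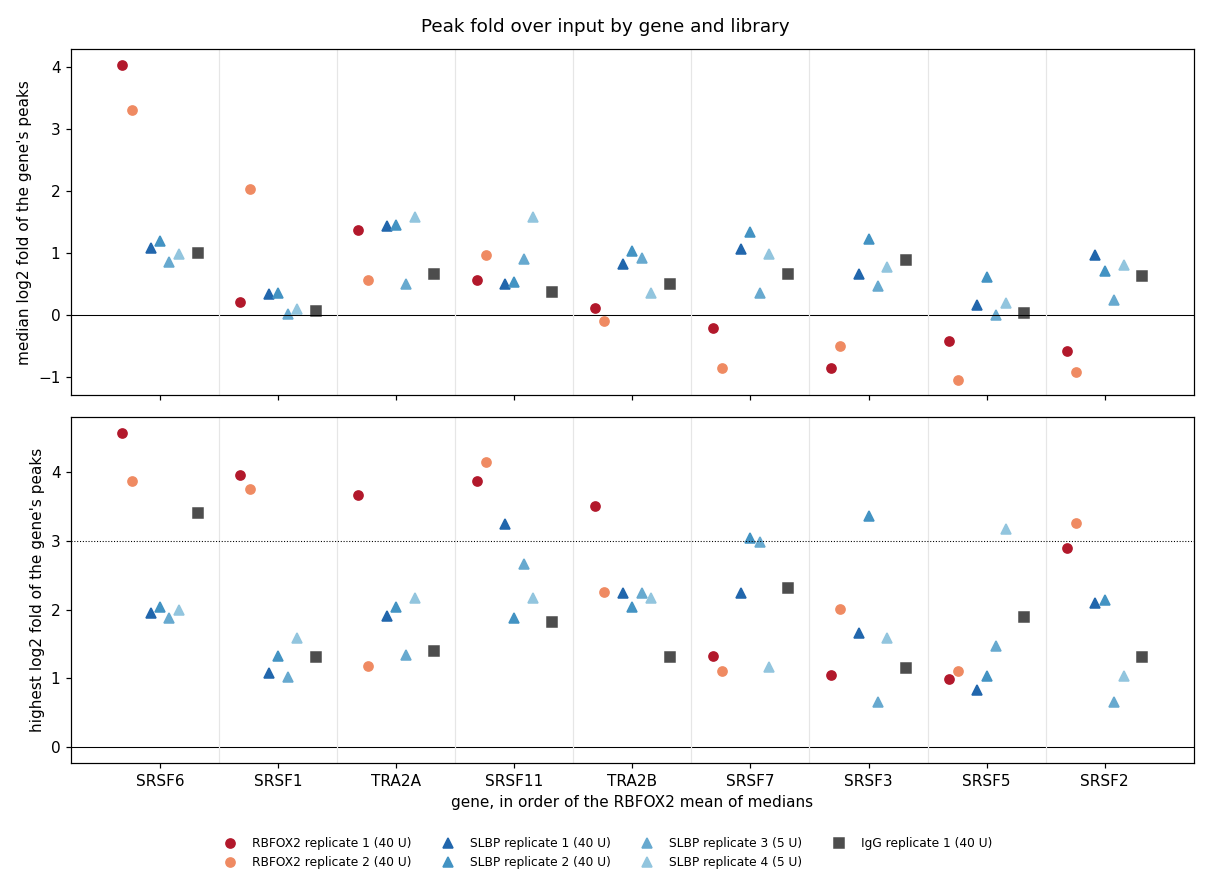
Median (upper panel) and highest (lower panel) log2 fold over input of the peaks of each gene, with 1 point per library and genes ordered from left to right by the mean of the RBFOX2 medians. The RBFOX2 circles of SRSF6 lie at 4.03 and 3.31 in the upper panel, above every other point, and those of SRSF7, SRSF3, SRSF5 and SRSF2 lie below 0 in both libraries.

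By median log2 fold, the RBFOX2 order of the genes ran from SRSF6 to SRSF2. The means of the library medians were 3.67 ± 0.51 for SRSF6, 1.13 ± 1.28 for SRSF1, 0.97 ± 0.58 for TRA2A, 0.77 ± 0.28 for SRSF11 and 0.01 ± 0.14 for TRA2B (SD, n = 2). They were −0.53 ± 0.45 for SRSF7, −0.67 ± 0.24 for SRSF3, −0.72 ± 0.44 for SRSF5 and −0.75 ± 0.24 for SRSF2 (SD, n = 2). SRSF6 stood apart from its neighbour in this order, with medians of 4.03 and 3.31 against 0.22 and 2.03 for SRSF1. The library values of SRSF1, TRA2A and SRSF11 overlapped each other, as did those of SRSF7, SRSF3, SRSF5 and SRSF2. TRA2B, with 0.11 and −0.09, overlapped neither group. SRSF1 had the widest spread between the 2 libraries.

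In SLBP and IgG the same 9 medians lay closer together. The SLBP means ran from 0.20 ± 0.17 for SRSF1 to 1.25 ± 0.49 for TRA2A (SD, n = 4), and the IgG medians from 0.03 for SRSF5 to 1.01 for SRSF6. SRSF6 was thus first in both RBFOX2 and IgG, and had 1.04 ± 0.14 in SLBP (SD, n = 4).

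The highest log2 fold of each gene was the value compared between antibodies with replicates on both sides. SRSF1 reached 3.95 and 3.75 in RBFOX2 replicates 1 and 2, against 1.08, 1.33, 1.02 and 1.58 in SLBP replicates 1 to 4 and 1.31 in IgG. SRSF2 reached 2.89 and 3.25 in RBFOX2, against 2.09, 2.14, 0.66 and 1.04 in SLBP and 1.31 in IgG. SRSF6 reached 4.56 and 3.86 in RBFOX2, against 1.94, 2.04, 1.88 and 2.00 in SLBP and 3.40 in IgG. The value of 4.56 belongs to a peak 6 nt wide with no counterpart in any other list, so these RBFOX2 values are from different places. In SRSF1, SRSF2 and SRSF6 both RBFOX2 libraries lay above all SLBP libraries, and also above IgG.

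SRSF11 reached 3.86 and 4.13 in RBFOX2, against 3.24, 1.87, 2.66 and 2.17 in SLBP and 1.83 in IgG. TRA2B reached 3.50 and 2.26 in RBFOX2, against 2.24, 2.04, 2.24 and 2.17 in SLBP and 1.31 in IgG. In TRA2B the lower RBFOX2 library was only just above the highest SLBP library.

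These 5 genes of 9 had RBFOX2 above SLBP without overlap, and the exact permutation p was 0.133 for each (two-sided, 2 against 4 libraries, unadjusted over 9 genes). With the smaller tail doubled, that is the smallest p that the 15 possible splits allow, so no gene could pass 0.05. The difference, RBFOX2 minus SLBP, was 2.59 for SRSF1, 2.25 for SRSF6, 1.59 for SRSF2, 1.51 for SRSF11 and 0.70 for TRA2B on the log2 scale. With peaks of at least 10 nt only, it was 2.08 for SRSF6. The TRA2B value rested on 1 library, since it was 0.08 without RBFOX2 replicate 1 and 1.33 without RBFOX2 replicate 2. Among the other splicing genes described below, 1 of 6 with peaks in all of these lists (16.7%) had RBFOX2 above SLBP without overlap. SRSF4, CLK1, CLK3 and CLK4 were left out of this count because an SLBP list had no peak there. Of these, SRSF4 (3.41 and 3.59) and CLK3 (3.84 and 3.97) had both RBFOX2 libraries above every SLBP value present. Their highest SLBP values were 2.57 and 3.04. CLK1 and CLK4 had no such separation. In the remaining genes of the 9 the groups overlapped. TRA2A differed by 0.56, SRSF3 by −0.28, SRSF5 by −0.57 and SRSF7 by −1.14 (exact permutation p of 0.667, 0.933, 0.667 and 0.267). Over SRSF3, SRSF5 and SRSF7 the largest −log10 p was 2.61 in SLBP and 2.81 in RBFOX2, both in SRSF3. The negative differences thus rest on peaks well under the limit of 5 on both sides. RBFOX2 had more peaks than SLBP in the windows, and the part of peak number in the highest fold was not tested.

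The order of RBFOX2 folds along the windows differed between their start and the next kilobase. In the first 0.5 kb, 13 of 20 RBFOX2 replicate 1 peaks (65.0%) and 17 of 21 replicate 2 peaks (81.0%) were below input, and none was enriched. Between 0.5 and 1.5 kb the RBFOX2 libraries had 39 and 45 peaks with 12 and 16 enriched, 9 and 12 below input (23.1% and 26.7%) and medians of 1.41 and 1.49. The share below input was also higher in the first 0.5 kb than in the next kilobase in SLBP replicate 3 (9 of 15 peaks against 3 of 12), SLBP replicate 4 (5 of 13 against 1 of 8) and IgG (4 of 13 against 1 of 18). In SLBP replicates 1 and 2 it was 0% and 9.09% in the first 0.5 kb and 0% in both in the next kilobase. Beyond 1.5 kb the RBFOX2 libraries had 110 and 90 peaks with 3 enriched in each and 64 and 50 below input. These enriched peaks were all of SRSF11, where no list had a peak before 15867 nt. The enriched peaks of the middle part came from SRSF6, SRSF1 and, in replicate 2, SRSF2, so this pattern rests on a few genes.

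The peak nearest the 5′ end of the window, taken from each list on its own, was below input in both RBFOX2 libraries in 7 of the 9 genes. The exceptions were SRSF6, with log2 folds of 4.16 and 0.68, and TRA2A, which was above input in both. In SLBP the first peak was below input in 0 and 0 genes in replicates 1 and 2 at 40 U, and in 6 and 2 genes in replicates 3 and 4 at 5 U. In IgG it was below input in 3. The first peaks are not at the same place in every gene: in SRSF5 they started at 78 nt in both RBFOX2 libraries and at 880 nt in SLBP replicate 2. In SRSF3, for example, the first peak had −1.26 and −1.47 in RBFOX2, against 0.98, 1.59, 0.04 and 0.40 in SLBP and 1.16 in IgG. In SRSF7 it had −0.96 and −1.97 in RBFOX2, against 0.71, 0.82, −0.85 and 0.82 in SLBP and 0.62 in IgG. In these 2 genes, whose first peaks lay close together in all lists, RBFOX2 and the 40 U SLBP libraries were on opposite sides of input. The same held in SRSF1 and TRA2B, whose first peaks also lay close together. There, however, IgG was below input as well (−0.27 and −0.50), as was SLBP replicate 3 (−0.04 and −0.34). SLBP replicate 4 had 0.65 in SRSF1 and −0.53 in TRA2B.

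Stretches covered by a peak in all 7 lists allow the antibodies to be set side by side at the same nucleotides. The genes held 11 of them. Both RBFOX2 libraries were below the other 5 in 6 (54.5%, against 65.5% of 1522 such stretches in the whole series) and above the other 5 in 2 (18.2%, against 1.71%). The share of low stretches in the genes was thus no higher than in the series. Both high stretches were in SRSF6, and no other gene had one. The enriched RBFOX2 stretches of SRSF1, SRSF2 and SRSF11 held no SLBP or IgG peak. They could therefore not be counted here, so their absence is no result about those genes.

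Most enriched peaks and most signs recurred between the RBFOX2 replicates. Of 15 enriched peaks of replicate 1, 12 (80.0%) lay on an enriched peak of replicate 2, against 68.7% over the whole list. In the other direction 15 of 19 did (78.9%), against 60.7%. Many of these peaks adjoin each other in the stretches of SRSF6, SRSF1 and SRSF11, so they are not independent. Of 107 peaks matched between the replicates, 93 had the same sign (86.9%, against 87.2% of 42129 in the whole lists), and 45 were below input in both. Across these peaks Pearson's r was 0.87 and Spearman's rho 0.85, against 0.84 and 0.82 over the whole lists; peaks of a gene share a transcript and are not independent. Matched folds were lower in replicate 2 in 69 of 107, with a median difference, replicate 2 minus replicate 1, of −0.33, against 22764 of 42129 and −0.11 over the whole lists. In SRSF5 this held for 17 of 18 matched peaks.

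**Figure D4:**
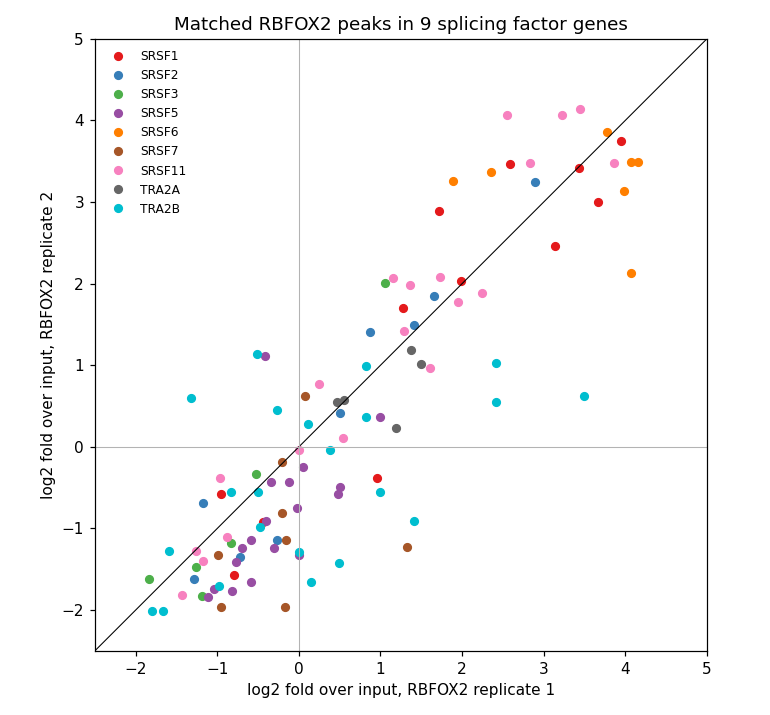
Log2 fold over input of 107 matched RBFOX2 peaks in replicate 2 (vertical axis) against replicate 1 (horizontal axis), coloured by gene, with the diagonal of equal folds. The 93 peaks of the same sign lie in the upper right and lower left parts; SRSF6 peaks lie in the upper right, and most SRSF5 peaks lie in the lower left, under the diagonal.

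Other genes of the SR pathway were counted in the same way in 10 windows: the SR genes SRSF4, SRSF9 and SRSF10, the SR-related SRRM1, SRRM2 and SON, and the kinases of SR proteins CLK1, CLK3, CLK4 and SRPK1. These windows were written from general knowledge and checked only by strand and length. They held 158 and 201 RBFOX2 peaks with 8 and 14 enriched (5.06% and 6.97%, against 7.95% and 7.66% of the lists). The share below input was 44.3% and 50.2%. They held 3 regions enriched in both RBFOX2 libraries, in 2 genes, against 7 regions in 3 of the 9 genes described above.

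SON, a large scaffold protein of nuclear speckles, had 2 of these regions and SRSF10 had 1. SON had 21 and 24 RBFOX2 peaks with 5 and 12 enriched, and highest log2 folds of 4.30 and 4.54. SRSF10 reached 3.53 and 3.54. SRSF9 followed the pattern of SRSF5 and SRSF7, with 7 of 9 and 7 of 8 RBFOX2 peaks below input and none enriched. SLBP and IgG had 0 enriched peaks in the 10 windows.

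The 7 regions enriched in both RBFOX2 libraries in the 9 genes covered 426 nt and were part of 2618 such regions in the series. Of these, 3 were in SRSF6, 2 in SRSF1 and 2 in SRSF11. Their highest RBFOX2 log2 folds per library lay between 3.42 and 4.22, and none reached 4 in both libraries. Outside RBFOX2, the largest −log10 p values in the 9 genes were those of IgG in SRSF6 (8.78, log2 fold 2.27) and in SRSF5 (8.33, log2 fold 1.90) and of SLBP replicate 1 in SRSF6 (7.32, log2 fold 1.94) and SRSF11 (7.18, log2 fold 2.54).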

How the data were processed

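Each deposited list gives, per peak, an interval, its strand, a −log10 p-value and then a log2 fold. The columns have no header, so the units rest on the range of the values and on the lists' names. Each library has a deposited list with intervals of its own. Per the submitters' processing notes, coordinates are on hg19 and the tools included STAR, cutadapt, SAMtools, Picard and GATK. The sources used here do not give the peak caller. No peak sequence, exon or motif was read, since no hg19 genome was used here.

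Peaks were assigned to windows, counted and matched with Python 3.11.15, pandas 2.3.3, numpy 2.4.6 and scipy 1.17.1. Matching code was tested on simulated data. A region is the nucleotides covered by enriched peaks of both RBFOX2 libraries. For a stretch, peaks with a log2 fold of at least 2 that lie less than 200 nt apart were joined within each RBFOX2 library, runs with an enriched peak were kept, and kept runs within 200 nt of each other were merged across libraries. All peaks that meet a stretch were counted in it; this was chosen after the data were seen. Matched peaks are replicate 1 peaks whose midpoint lies in a replicate 2 peak. All 9 genes were named, with the regions enriched in both RBFOX2 libraries, otherwise the highest peak of each library, and every enriched SLBP or IgG peak. CLK2 was left out because its window went against the gene table by over 15% in length; 8 of 9 member windows lay within 15% (SRSF1 did not), and strand could be checked for 7. The members, lists and tests were chosen with earlier results of these data known.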

Additional observations from a re-analysis of the deposited data

Results flagged for a closer look

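In SRSF2, SRSF3 and SRSF7 the median log2 fold of the peaks was below 0 in both RBFOX2 libraries and above 0 in all 4 SLBP libraries. The means were −0.75 ± 0.24 in RBFOX2 (SD, n = 2) against 0.69 ± 0.31 in SLBP (SD, n = 4) for SRSF2, with 0.64 in IgG. For SRSF3 they were −0.67 ± 0.24 in RBFOX2 against 0.78 ± 0.33 in SLBP, with 0.90 in IgG. For SRSF7 they were −0.53 ± 0.45 in RBFOX2 against 0.94 ± 0.41 in SLBP, with 0.67 in IgG. The difference was not tested. Each fold was scaled to its own input, so the scales are not known to match. The RBFOX2 lists as a whole also held a higher share of peaks below input than the SLBP lists.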

How the results depend on the processing

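The libraries give no read depth, the SLBP and IgG lists are shorter than the RBFOX2 lists, and IgG has 1 library. Of 145 values recomputed under alternatives, 123 were classed as unchanged, 17 moved and 5 turned round. For the highest fold of a single gene, unchanged means the same sign only, and the size could differ. TRA2B, for example, was classed as unchanged at 0.08 in place of 0.70, without RBFOX2 replicate 1. With the stricter limits (−log10 p of at least 10 and log2 fold of at least 4) enriched RBFOX2 peaks averaged 3 in place of 17, no region remained in place of 7, IgG had 0 enriched peaks and the overlap of replicates was 0%. With a log2 fold limit of 2, SLBP averaged 0.25 enriched peaks and IgG had 2, and with the fold limit alone SLBP averaged 1. Merging touching peaks gave 10 enriched RBFOX2 peaks, a median log2 fold of −0.13 and 54.7% below input. Without SRSF11 these last values were −0.17 and 54.3%, in place of −0.02 and 50.8%. Without SRSF6, a setting added after the data were seen, 8 enriched RBFOX2 peaks and 4 regions remained, IgG had 0, the median was −0.17 and 54.9% of peaks were below input. Leaving out 1 RBFOX2 library only returns the values of the other library, so it is no separate check, although these values count among the 123. They were 15 to 19 enriched peaks, 16.0 to 22.6 peaks per 10000, medians of −0.03 to 0.00 and 50.6% to 50.9% below input.

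For the highest log2 fold, RBFOX2 minus SLBP, SRSF5 turned to 0.12 against the 40 U SLBP libraries alone, and TRA2A to −0.49 with peaks of at least 10 nt. Leaving out 1 library gave −0.76 to 0.24 for SRSF3 (0.20 without RBFOX2 replicate 1, 0.24 without SLBP replicate 2), −0.68 to 1.80 for TRA2A (−0.68 without RBFOX2 replicate 1), 0.08 to 1.33 for TRA2B, and 5 to 6 genes with RBFOX2 above SLBP. Nothing in the labels says that equal replicate numbers share a culture, and differences between replicates 1 and 2 correlated with 0.23 over the 9 genes. With the replicate number as a block, 6 genes had each RBFOX2 library above the 40 U SLBP library of the same number. This asks for less than RBFOX2 above all SLBP libraries, which 5 genes met, so the counts are not alike. The smallest exact permutation p of 2 pairs is 0.5. The cause was not tested for any of these shifts.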
